A study of Mus musculus with 30 samples.

Results

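The genes described here are 9 genes tied to glucocorticoid signalling, read by symbol from a table of 24888 rows: the receptor Nr3c1, the feedback chaperone Fkbp5, the leucine zipper gene Tsc22d3, the kinase Sgk1, the growth regulator Ddit4, the transcription factor Klf9, the inflammatory brakes Dusp1 and Zfp36, and the sulfotransferase Sult1a1. Every one of the 9 passed the filter on low values (1 FPKM or more in 2 or more of the 30 libraries), as did 11759 genes in all. FPKM is a read count scaled to gene length and library size. RNA came from microglia of the lumbar spinal cord of C57BL/6J mice, purified by CD11b selection, a surface protein that monocytes and neutrophils also carry.

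Nerve injury was of 3 kinds, with 2 libraries for each kind and day: cutting of the sciatic nerve (SNT, sciatic nerve transection; 1, 2, 4 and 7 days after injury, dpi), loose ligation of it (CCI, chronic constriction; 2 and 7 dpi) and the spared nerve model (SNI; 7 dpi). Chronic morphine followed a fixed schedule in 4 libraries and an escalating schedule in 3. Controls were mice given fixed saline (4 libraries), mice given escalating saline (3 libraries) and naive mice with no treatment or injury (2 libraries). The labels give no dose, age, sex or sampling hour, no sham operation, and no statement that each library is 1 animal, so p-values measure the spread between libraries, which may in part be technical. The study compared how microglia respond to opioid exposure and to peripheral nerve injury.

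Corticosterone, the main glucocorticoid of mice, enters the cell and binds the glucocorticoid receptor, which is held ready in the cytosol by chaperones. The bound receptor moves to the nucleus and attaches to DNA as a dimer, typically at a pair of facing hexamers, and raises genes such as Fkbp5, Tsc22d3, Sgk1, Klf9, Ddit4 and Dusp1. Plasma corticosterone follows the time of day and rises with handling, injection and injury, and microglia express the receptor at a high level, so these genes are commonly read as a record of hormone exposure. Several of them also answer to other signals: Dusp1 and Zfp36 are immediate early genes that cell isolation can raise, and Ddit4 answers to hypoxia and energy stress.

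The libraries fell on either side of a line in Cst3, a highly expressed microglial protease inhibitor. Cst3 was over 30000 FPKM in 16 libraries (39503 to 95123 FPKM) and under it in 14 (10120 to 20827 FPKM). Over the line were all saline libraries, SNT replicates except SNT 7 dpi replicate 2, and escalating morphine replicates 2 and 3. Under it were both naive libraries, all CCI and SNI libraries, all fixed morphine libraries, SNT 7 dpi replicate 2 and escalating morphine replicate 1. Fixed morphine and fixed saline, and likewise saline and naive, therefore lie wholly on opposite sides, and treatment and library side cannot be told apart in those comparisons. The mean log2(FPKM + 1) of 12 microglial markers was 8.38 to 9.70 in the 30 libraries, and that of 11 neutrophil markers was 4.49 to 9.68. Depth is unknown. Genes at 1 FPKM or more numbered 8005 to 10427 per library, with the fewest in SNT 1 dpi replicate 1, SNT 7 dpi replicate 1 and SNT 2 dpi replicate 2. In such bulk samples fewer cells of a type and less RNA per cell cannot be told apart.

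Promoter sequence from RefSeq (GRCm38.p6, the assembly also called mm10) was matched by symbol for 8 of the 9 genes, in 15 windows, and the 250 bases before each start were searched. The receptor half-site, AGAACA or its reverse complement TGTTCT, was found in 16.1% of all 32851 windows of the table. A pair of facing half-sites, AGAACA and TGTTCT separated by 3 bases, was found in 3 windows of the table (0.00913%), and 1 of these is a start of Sgk1. That Sgk1 window, chr10:21993640-21993889 on the plus strand, is shown because it holds the receptor's textbook palindrome, in capitals, beginning 189 bases before the start. Among the 6 Sgk1 windows, and the 15 windows in all, no other held such a pair. Dusp1, at chr17:26508473-26508722 on the minus strand, is shown because its window holds 3 matches to the cAMP response element core TGACG or its reverse complement CGTCA, in capitals, of which 2 overlap in 1 full TGACGTCA element. The core was found in 17.8% of windows and the full element in 1.55%. Sult1a1, at chr7:126676419-126676668 on the minus strand, is shown because it is the gene called below. Its 2 unpaired half-sites, 212 and 34 bases before the start, are in capitals. The bases after this Sult1a1 start were not found in a listed transcript of the gene. Those after the Sgk1 and Dusp1 starts shown were found in transcripts of their genes. A match is a description of the letters and not of binding.
Sgk1: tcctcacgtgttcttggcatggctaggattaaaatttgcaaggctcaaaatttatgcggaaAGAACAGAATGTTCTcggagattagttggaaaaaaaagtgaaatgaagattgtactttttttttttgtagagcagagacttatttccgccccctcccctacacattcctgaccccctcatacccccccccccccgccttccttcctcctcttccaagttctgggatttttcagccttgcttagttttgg
Dusp1: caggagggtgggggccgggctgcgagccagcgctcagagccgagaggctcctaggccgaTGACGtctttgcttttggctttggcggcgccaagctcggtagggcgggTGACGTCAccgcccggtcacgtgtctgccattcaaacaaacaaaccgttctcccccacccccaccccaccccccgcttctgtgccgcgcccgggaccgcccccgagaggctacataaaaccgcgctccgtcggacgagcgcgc
Sult1a1: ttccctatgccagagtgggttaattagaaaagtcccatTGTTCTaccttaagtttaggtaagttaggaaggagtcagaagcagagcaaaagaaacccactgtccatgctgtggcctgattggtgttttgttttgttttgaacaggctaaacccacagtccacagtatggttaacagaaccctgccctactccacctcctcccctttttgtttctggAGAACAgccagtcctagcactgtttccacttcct

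Of the 9 genes, Sult1a1 alone passed the test in any comparison, and it did so once, lower in fixed morphine than in fixed saline. All p-values came from limma on log2(FPKM + 1), two-sided, adjusted by the Benjamini-Hochberg method over all 11759 genes, and a gene was called at an adjusted p under 0.05. In fixed morphine against fixed saline 1 of 9 was called, where 18% of all tested genes were. In escalating morphine against escalating saline 0 of 9 were called (0.034% of all genes). There, 2 of 9 had an unadjusted p under 0.05, as did 19.2% of all genes. For the difference between the regimens 0 of 9 were called (0.0085% of all genes). Its unadjusted p was under 0.05 for 1 of 9 and for 11.7% of all genes.

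The injury comparisons, which share the same 9 controls, called none of the 9 genes. The share of all genes called was 0.017% in SNT 1 dpi, 0% in SNT 2 dpi, 0% in SNT 4 dpi, 0.204% in SNT 7 dpi, 0.0085% in CCI 2 dpi, 0% in CCI 7 dpi and 0% in SNI 7 dpi, so these fits called little anywhere. At an unadjusted p under 0.05 limma gave 1 of 9 in SNT 1 dpi, where 16.1% of all genes passed. It gave 1 in SNT 2 dpi (7.33% of all genes), 2 in SNT 4 dpi (2.34%) and 0 in SNT 7 dpi (8.88%). In CCI 2 dpi (10.7%), CCI 7 dpi (9.75%) and SNI 7 dpi (4.06%) it gave 1 each. Among controls 0 of 9 were called in fixed saline against naive (0.544% of all genes), 0 in escalating saline against naive (0.153%) and 0 in fixed against escalating saline (0%). There, 2, 5 and 0 of 9 had an unadjusted p under 0.05, as did 11.7%, 12.8% and 8.9% of all genes.

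**Figure D1:**
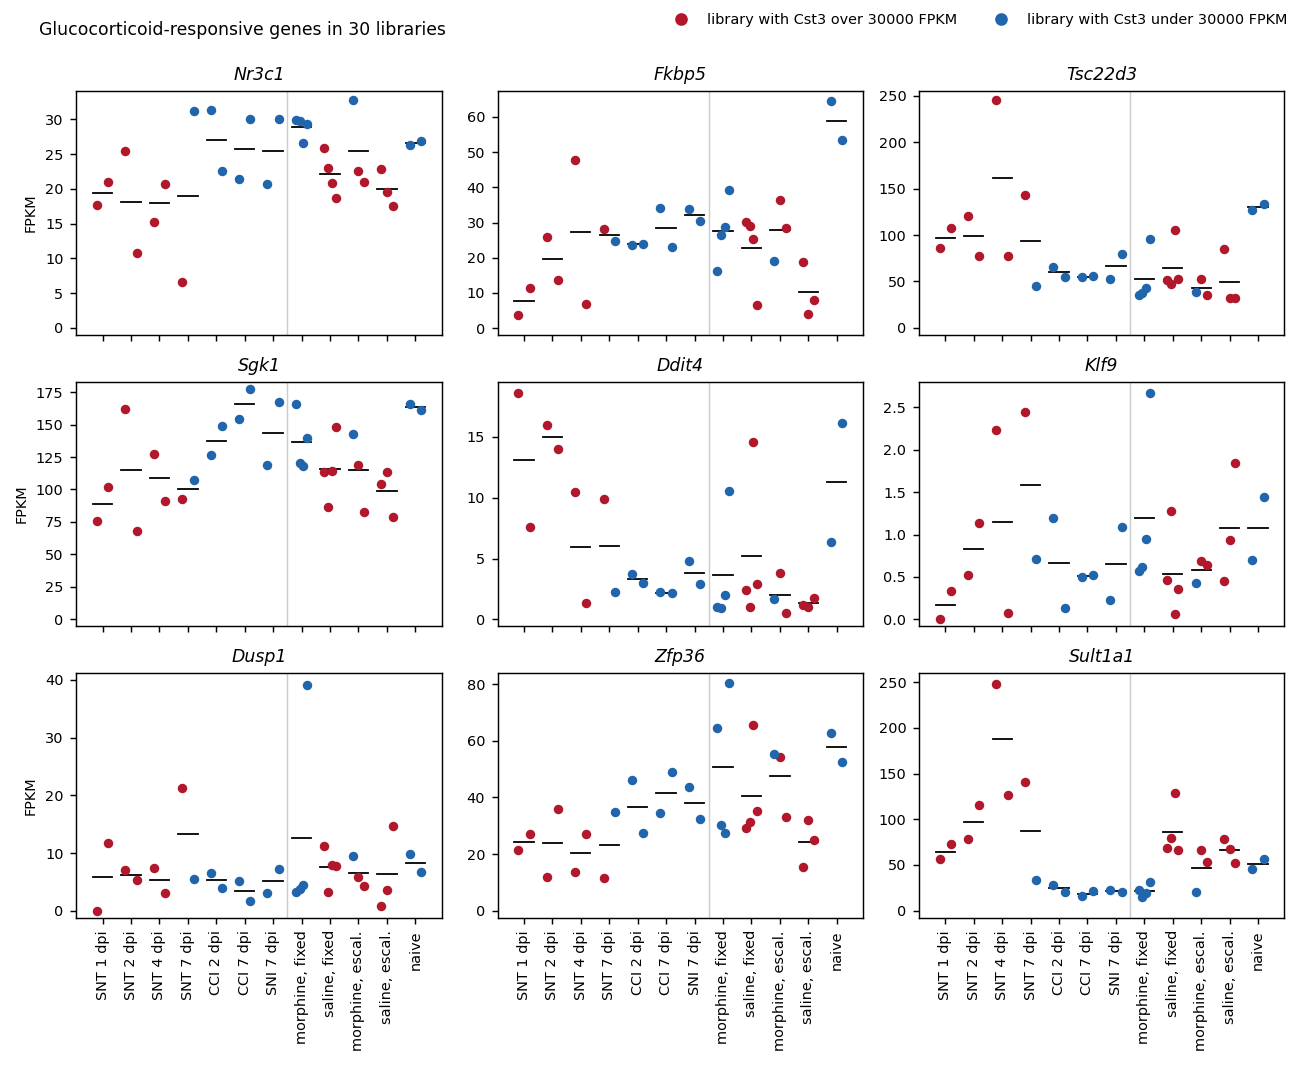
FPKM of each gene (y axes, linear) in every library (points) by group (x axis), with the group mean as a line and the side of the Cst3 line as colour. Sult1a1 sits between 15.5 and 31.2 FPKM in fixed morphine and between 66.2 and 129 FPKM in fixed saline, and Fkbp5 is highest in the naive libraries.

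Nr3c1, which encodes the receptor, was present in every library at 6.62 to 32.8 FPKM with a median of 22.8 FPKM. In fixed morphine it was at 29.9, 29.7, 26.6 and 29.4 FPKM, against 26.0, 23.1, 20.9 and 18.7 FPKM in fixed saline. The groups did not overlap, but the fitted difference in log2(FPKM + 1), 0.38 ± 0.18 (SE), had an adjusted p of 0.143 and was not called. With array weights it was called (adjusted p = 0.0422), with quantile normalization or median-ratio scaling it was 0.22 or 0.15, and with the Cst3 side as a term it turned to -0.84. That term was estimated only within SNT 7 dpi and escalating morphine, the groups with libraries on both sides. It includes SNT 7 dpi replicate 1, at 6.62 FPKM, which is among the libraries with the fewest genes. The naive libraries, on the same side of the Cst3 line as fixed morphine, held 26.4 and 26.9 FPKM, and against them the fixed morphine difference was 0.11 ± 0.39.

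In escalating morphine Nr3c1 was at 32.8, 22.6 and 21.0 FPKM, against 22.9, 19.5 and 17.5 FPKM in escalating saline. The groups overlapped, and the highest of the morphine libraries, replicate 1, was the one under the Cst3 line. Across the series Nr3c1 was at 6.62 to 26.0 FPKM over the line and 20.7 to 32.8 FPKM under it. The widest pair of replicates was SNT 7 dpi, at 6.62 and 31.3 FPKM, and its replicates lay on opposite sides. SNT 2 dpi also differed, at 25.4 and 10.8 FPKM, with both replicates over the line. The libraries at 6.62 and 10.8 FPKM are among those with the fewest genes. Another of those, SNT 1 dpi replicate 1, held 17.7 FPKM. The genes most like Nr3c1 over the 30 libraries were Atp6v0a1, Sel1l and Snx18, each with Pearson's r of 0.95 on log2(FPKM + 1), a description of libraries that share these sides.

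Fkbp5 encodes a co-chaperone that lowers the receptor's affinity for hormone and is itself raised by the receptor, which closes a short feedback loop. Fixed saline held 30.3, 29.1, 25.3 and 6.60 FPKM and escalating saline 18.7, 4.03 and 8.05 FPKM, against 64.5 and 53.3 FPKM in naive libraries, the highest values of the series. All 7 saline controls were below both uninjected ones. The fitted log2 difference was -1.52 ± 0.61 in fixed saline against naive (adjusted p = 0.291) and -2.63 ± 0.65 in escalating saline against naive (adjusted p = 0.0866). Neither was called in the limma fit of all 30 libraries; with array weights the second was (adjusted p = 0.00355). The other libraries on the naive side of the Cst3 line are all morphine or injury libraries. Fkbp5 was at 16.3 FPKM in the lowest and 39.1 FPKM in the highest of the fixed morphine libraries. It was within these values in the CCI, SNI and remaining libraries of that side. In saline against naive, treatment and library side cannot be told apart.

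In escalating morphine Fkbp5 was at 19.1, 36.3 and 28.3 FPKM, against the 18.7, 4.03 and 8.05 FPKM of escalating saline. All 3 morphine libraries were above all 3 saline libraries, and the log2 difference of 1.54 ± 0.55 missed the threshold (adjusted p = 0.167, limma). Replicates 2 and 3, which are on the same side of the Cst3 line as the saline libraries, were the higher ones. The mean log2 of neutrophil markers was 8.59, 6.14 and 6.59 in the 3 escalating morphine libraries and 7.18, 8.05 and 9.68 in the 3 escalating saline libraries, and its part in the difference was not tested. In fixed morphine Fkbp5 was at 16.3, 26.5, 28.8 and 39.1 FPKM, overlapping fixed saline, with a log2 difference of 0.40 ± 0.48 (adjusted p = 0.586). The difference between regimens, -1.14 ± 0.73, had an adjusted p of 0.566. Among injuries, SNT 1 dpi held the lowest mean of all 12 groups, with 3.72 and 11.4 FPKM, but the controls reached down to 4.03 FPKM.

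Tsc22d3 encodes GILZ, a leucine zipper protein that binds inflammatory transcription factors and mediates part of the anti-inflammatory action of glucocorticoids. It showed the same order among controls as Fkbp5: 51.9, 47.8, 106 and 52.3 FPKM in fixed saline and 85.2, 32.1 and 32.6 FPKM in escalating saline, against 127 and 133 FPKM in naive libraries. No saline library reached a naive one. The log2 differences, -1.08 ± 0.49 in fixed saline (adjusted p = 0.374) and -1.52 ± 0.51 in escalating saline (adjusted p = 0.201), were not called; with array weights both were, at adjusted p of 0.0452 and 0.0258. With the Cst3 side as a term they were -1.87 and -2.31, not called. Fixed morphine, at 35.1, 37.3, 43.5 and 95.3 FPKM, overlapped fixed saline and also lay below the naive libraries, with a log2 difference from naive of -1.41 ± 0.49 (adjusted p = 1).

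The highest Tsc22d3 value of the series was 245 FPKM, in SNT 4 dpi replicate 1, while replicate 2 of that group held 77.3 FPKM. The group differed from the 9 controls by 1.07 ± 0.51 in log2 (adjusted p = 1, unadjusted p under 0.05), and the replicates straddled the highest control. Against naive alone the difference was 0.08 ± 0.56, and it was 0.24 without replicate 1 and 1.89 without replicate 2. That replicate 1 was also the highest library for Sult1a1 (248 FPKM) and held 47.8 FPKM Fkbp5, 2.23 FPKM Klf9 and 10.5 FPKM Ddit4, against 6.70, 0.0700 and 1.36 FPKM for those 3 genes in replicate 2. Its immediate early genes were low, with a mean log2 of 2.31, and its neutrophil marker mean was 6.98. Tsc22d3 was most like Ddit4 over the 30 libraries (r = 0.78), another of the 9 genes, followed by Timm22 (0.66) and 2210404O09Rik (0.61).

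Sgk1, a kinase that controls ion channels and survival pathways, was at 68.0 to 177 FPKM in the 30 libraries. Escalating saline held 104, 114 and 78.5 FPKM and fixed saline 113, 86.6, 114 and 148 FPKM, against 166 and 161 FPKM in naive libraries. Again no saline library reached a naive one, at log2 differences of -0.74 ± 0.33 (adjusted p = 0.329) for escalating and -0.52 ± 0.31 (adjusted p = 0.553) for fixed saline; the escalating difference was -0.35 with the Cst3 side as a term. Under morphine the log2 difference was 0.25 ± 0.22 in the fixed and 0.20 ± 0.25 in the escalating regimen, with overlapping groups. CCI 7 dpi held the highest group mean, 166 ± 16.4 FPKM (SD, n = 2), at 154 and 177 FPKM, but the controls ran up to 166 FPKM. Sgk1 had a median of 103 FPKM over the Cst3 line and 146 FPKM under it, and correlated with Cst3 at r = -0.68 over 30 libraries.

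Ddit4 encodes REDD1, an inhibitor of the mTORC1 growth pathway. It was highest early after transection, with 18.6 and 7.58 FPKM in SNT 1 dpi and 16.02 and 14.04 FPKM in SNT 2 dpi. At 4 dpi the values were 10.5 and 1.36 FPKM, and at 7 dpi 9.90 and 2.23 FPKM. The 9 controls spanned 0.987 to 16.2 FPKM with a median of 2.41 FPKM, so every SNT group overlapped them. The log2 differences of 1.56 ± 0.73 at 1 dpi (adjusted p = 0.301) and 1.86 ± 0.73 at 2 dpi (adjusted p = 0.671) had unadjusted p under 0.05 and were not called. Against the 7 saline libraries alone, which share the Cst3 side of these SNT libraries, they were 1.94 ± 0.67 (adjusted p = 0.255) and 2.25 ± 0.67 (adjusted p = 0.808). Against the naive libraries alone they were 0.21 ± 0.76 (adjusted p = 0.906) and 0.51 ± 0.76 (adjusted p = 0.7895), and without SNT 1 dpi replicate 1 the difference from all controls at 1 dpi was 0.96. Of the saline libraries 1 stood high, fixed saline replicate 5 at 14.6 FPKM, and the others held 0.987 to 2.90 FPKM.

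CCI at 2 dpi held 3.73 and 2.96 FPKM Ddit4, both below SNT 2 dpi. The direct log2 difference, SNT minus CCI at 2 dpi, was 1.89 ± 0.94 (adjusted p = 0.288, limma). This comparison, chosen after the values were seen, called 0% of all genes and 0 of the 9. Its unadjusted p was under 0.05 for 1 of 9 and for 17.9% of all genes. Among controls, Ddit4 was at 1.19, 1.01 and 1.73 FPKM in escalating saline, against 6.37 and 16.2 FPKM in naive libraries, a log2 difference of -2.30 ± 0.79 without overlap (adjusted p = 0.208). Its fixed saline values overlapped the naive ones through replicate 5. After Tsc22d3 the gene most like Ddit4 was Nfkbia (r = 0.78), the inhibitor of NF-kappaB.

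**Figure D2:**
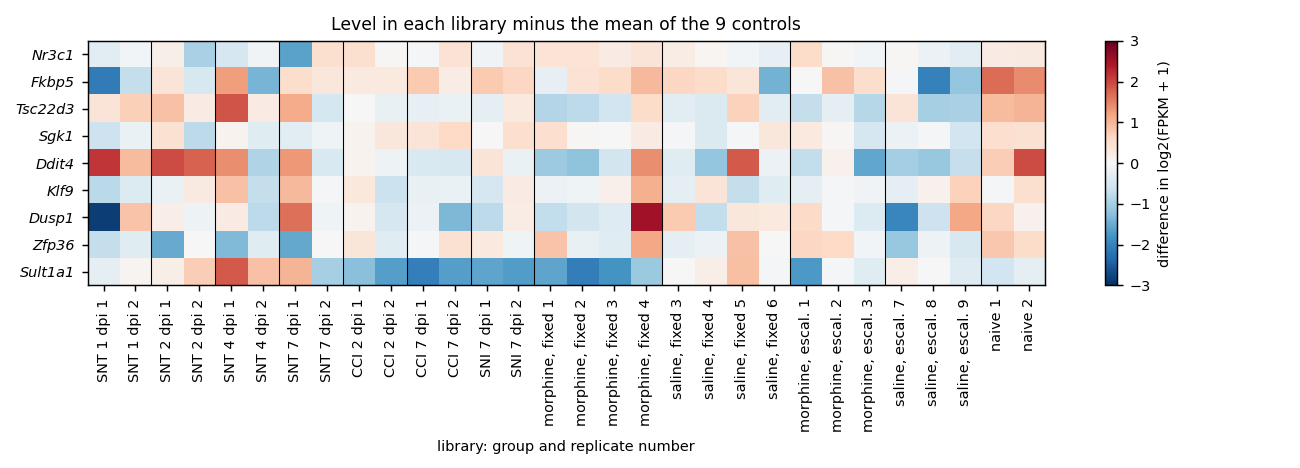
Difference in log2(FPKM + 1) of each gene (rows) from the mean of the 9 controls in each library (columns, by group and replicate number), red above and blue below. Sult1a1 is blue in every CCI, SNI and fixed morphine library, Ddit4 is red in the SNT 1 and 2 dpi libraries, and fixed morphine replicate 4 and SNT 4 dpi replicate 1 stand out from their groups in several genes.

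Klf9, a transcription factor that follows circulating corticosterone in brain cells, was low in these libraries. It was under 1 FPKM in 21 of 30 libraries, and its highest value was 2.67 FPKM, in fixed morphine replicate 4. Fixed morphine held 0.573, 0.612, 0.948 and 2.67 FPKM, against 0.466, 1.27, 0.0614 and 0.357 FPKM in fixed saline. The groups overlapped, and at this level a pseudocount of 1 compresses any difference. No comparison gave Klf9 an unadjusted p under 0.05. Its pattern was most like Pik3ip1 (r = 0.73), Spp1 (0.72) and Dmxl2 (0.66).

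Dusp1 encodes a phosphatase that switches off the p38 and JNK kinases, and Zfp36 encodes tristetraprolin, which marks cytokine mRNAs for decay. Dusp1 was at 39.2 FPKM in fixed morphine replicate 4, the highest of all 30 libraries, while the other 3 fixed morphine libraries held 3.24, 3.82 and 4.44 FPKM. Fixed saline held 11.2, 3.21, 7.94 and 7.68 FPKM, so those 3 were below 3 of the 4 fixed saline values, and the group difference was 0.04 ± 0.72 in log2 (adjusted p = 0.976). Replicate 4 was also the highest of all libraries for Klf9 (2.67 FPKM) and Zfp36 (80.4 FPKM), and it held 95.3 FPKM Tsc22d3 and 10.5 FPKM Ddit4. Its mean log2 was 4.11 over the immediate early genes, 9.01 over the neutrophil markers and 5.89 over the monocyte markers. The other 3 fixed morphine libraries had 2.96 to 3.47 over the immediate early genes and 5.73 to 6.67 over the neutrophil markers. Over the monocyte markers they had 3.53 to 4.03. The part of any of these in the high values of replicate 4 was not tested. In SNT 1 dpi replicate 1, the library with the fewest genes, Dusp1 and Klf9 are listed at 0.

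Zfp36 in the escalating regimen was at 55.3, 54.3 and 33.2 FPKM in morphine, against 15.5, 32.0 and 25.0 FPKM in saline. The lowest morphine library was just above the highest saline library. The log2 difference was 0.97 ± 0.43 (adjusted p = 0.237). The same escalating saline libraries lay without overlap below the naive libraries, which held 62.7 and 52.6 FPKM (-1.27 ± 0.52, adjusted p = 0.288; -0.41 with the Cst3 side as a term). Fixed morphine (64.6, 30.2, 27.4 and 80.4 FPKM) and fixed saline (29.3, 31.3, 65.7 and 35.1 FPKM) overlapped. Zfp36 was most like Jun (r = 0.77), an immediate early gene, whereas Dusp1 was most like Crispld2 (0.82), Asprv1 (0.78) and Stx11 (0.77). Dusp1 and Zfp36 correlated with each other at only r = 0.17, and Dusp1 with Klf9 at 0.58.

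**Figure D3:**
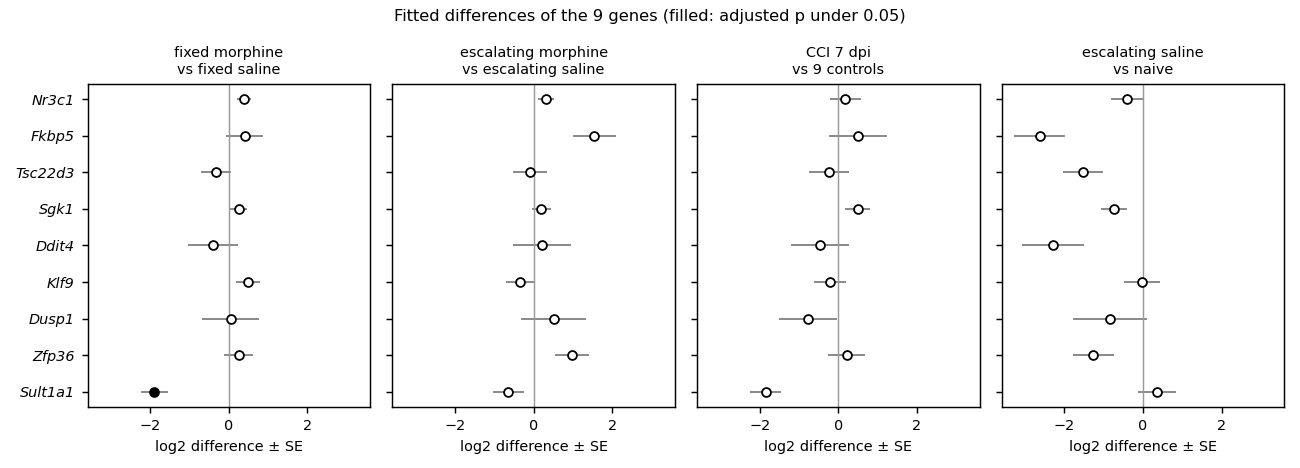
Fitted log2 differences (x axes, positive where the first-named group is higher) with standard errors for the 9 genes (rows) in 4 comparisons. The filled point is Sult1a1 in fixed morphine at -1.90; in escalating saline against naive, Fkbp5 lies at -2.63 and Ddit4 at -2.30 without being called.

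Sult1a1 encodes a cytosolic sulfotransferase that adds sulfate to phenols, catechols and drugs, and in rat liver it is raised by glucocorticoids. It was at 22.4, 15.5, 19.1 and 31.2 FPKM in fixed morphine, against 68.5, 79.1, 129 and 66.2 FPKM in fixed saline. The highest morphine library held less than any saline library. The log2 difference was -1.90 ± 0.34 (limma, adjusted p = 0.00606). It was called with each library left out in turn, at -2.08 to -1.69. With the Cst3 side of the library as a term, in a limma fit of all 30 libraries, it was -0.17 ± 0.43 (adjusted p = 0.951). That term was estimated only within SNT 7 dpi (141 and 34.1 FPKM) and escalating morphine (20.1, 66.8 and 53.1 FPKM). The fixed groups do not inform it, so it cannot tell treatment from side there. Against the naive libraries, which share the side of fixed morphine, the difference was -1.22 ± 0.46 (adjusted p = 1). Replicate 4, with the high neutrophil and immediate early values, held the most Sult1a1 of the 4, and without it the difference was -2.08 (adjusted p = 0.0109).

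In the escalating regimen Sult1a1 was at 20.1, 66.8 and 53.1 FPKM in morphine, against 78.6, 67.9 and 52.6 FPKM in saline. Replicate 1, the morphine library under the Cst3 line, was the low one, and the other 2 lay within the saline values. The log2 difference was -0.64 ± 0.39 (adjusted p = 0.398). The difference between the regimens was -1.26 ± 0.52 (adjusted p = 0.377), and without escalating morphine replicate 1 it was -1.77 ± 0.41 and called (adjusted p = 0.0345). With the Cst3 side as a term it was -0.10.

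The Sult1a1 values of all 6 CCI and SNI libraries lay within the range of the fixed morphine libraries. CCI 2 dpi was at 28.0 and 21.0 FPKM, CCI 7 dpi at 15.8 and 21.3 FPKM and SNI 7 dpi at 22.3 and 20.9 FPKM, all below the 9 controls, which spanned 45.7 to 129 FPKM with a median of 67.9 FPKM. The log2 differences were -1.46 ± 0.40 (adjusted p = 0.385), -1.85 ± 0.40 (adjusted p = 0.269) and -1.62 ± 0.40 (adjusted p = 0.999), none called, each with an unadjusted p under 0.05. Within the Cst3 side of these libraries, the naive controls held 45.7 and 56.9 FPKM, again above all 6. Against naive alone the log2 differences were -1.04 ± 0.55, -1.43 ± 0.55 and -1.20 ± 0.55 (each adjusted p = 1), and with the Cst3 side as a term against all controls they were -0.76, -1.15 and -0.92. Against saline alone CCI 7 dpi was called, at -1.97 ± 0.41 (adjusted p = 0.0200), with injury and library side not told apart.

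After transection Sult1a1 was in every library above all CCI, SNI and fixed morphine values. SNT 1 dpi was at 56.5 and 72.8 FPKM, SNT 2 dpi at 78.0 and 115 FPKM, SNT 4 dpi at 248 and 127 FPKM and SNT 7 dpi at 141 and 34.1 FPKM. The lowest of these, SNT 7 dpi replicate 2, is the transection library under the Cst3 line. SNT 4 dpi differed from the controls by 1.36 ± 0.40 in log2 (adjusted p = 1), and replicate 2 of that group lay just below the highest control. Without replicate 1 the difference was 0.88. Directly compared, Sult1a1 was higher in SNT than in CCI by 1.93 ± 0.51 at 2 dpi (adjusted p = 0.2195) and by 1.87 ± 0.51 at 7 dpi (adjusted p = 0.366), with no overlap and no call. At 7 dpi it was 0.86 without SNT replicate 1 and 2.88, called, without SNT replicate 2. The 7 dpi comparison, also chosen after the values were seen, called 0% of all genes and 0 of the 9. Its unadjusted p was under 0.05 for 1 of 9 and for 6.41% of all genes. These direct comparisons called up to 1779 genes at 2 dpi and 1777 at 7 dpi when 1 SNT library was left out. With the Cst3 side as a term the Sult1a1 differences were 1.03 ± 0.52 and 1.42 ± 0.45.

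**Figure D4:**
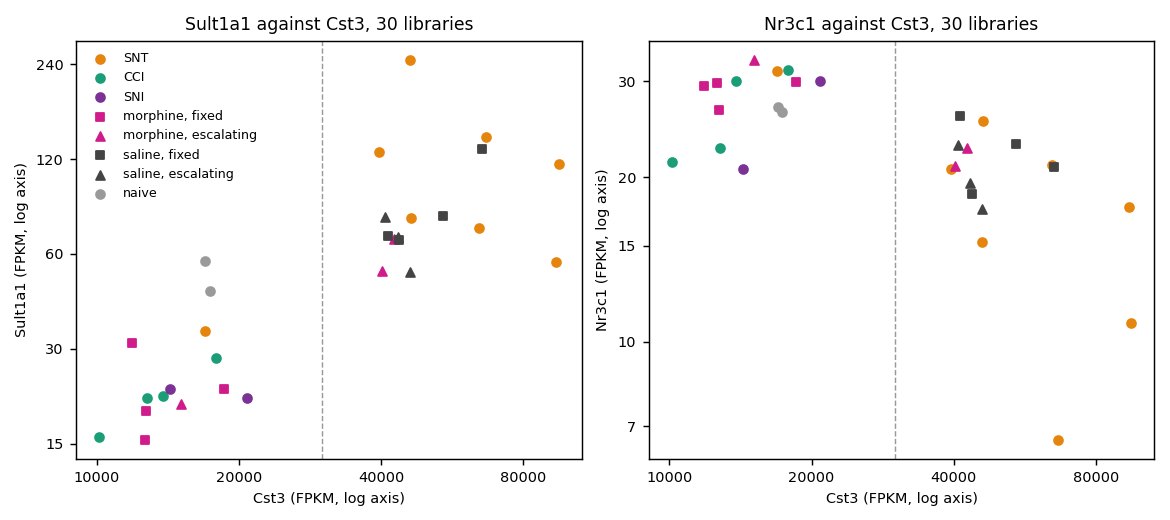
Sult1a1 (left) and Nr3c1 (right) against Cst3 in the 30 libraries, in FPKM on log axes, with the line at 30000 FPKM dashed; colour and marker give the group. Sult1a1 is at 52.6 FPKM or more in every library right of the line and at 56.9 FPKM or less in every library left of it, where the naive libraries are the highest.

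Over the 30 libraries Sult1a1 was at 52.6 to 248 FPKM over the Cst3 line and at 15.5 to 56.9 FPKM under it. It correlated with Cst3 at r = 0.83 and was most like Fcgr3 (0.94), Rnase4 (0.91) and Gabarapl2 (0.88). Among the 9 genes its correlation with Cst3 was the highest in size, ahead of Sgk1 at -0.68 and Nr3c1 at -0.66. Its correlation with Fkbp5 was -0.17. The 9 genes did not move as a block: their 36 pairwise correlations ran from -0.64 to 0.78.

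The wider pathway was read from other lists. Of 24 further genes commonly induced by glucocorticoids, 19 passed the filter, and in fixed morphine 0 rose and 2 fell against fixed saline, with a median log2 difference of -0.30 where all genes had 0.22. Per1, a clock gene that the receptor induces, fell to 1.03 ± 0.509 FPKM in fixed morphine, against 7.02 ± 4.14 FPKM in fixed saline (SD, n = 4 each; log2 difference -1.88 ± 0.50, adjusted p = 0.0233, limma). Cebpd, a transcription factor of the acute phase response, fell to 24.5 ± 3.76 FPKM in fixed morphine, against 62.3 ± 32.2 FPKM in fixed saline (-1.17 ± 0.34, adjusted p = 0.0315). Neither group pair overlapped. Fixed morphine and fixed saline differ in library side for these genes as for Sult1a1.

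Of 17 receptor chaperones and co-regulators, 3 rose in fixed morphine and 0 fell, with a median of 0.28. The co-activator Ncoa1 rose to 7.42 ± 1.22 FPKM in fixed morphine, against 1.24 ± 0.531 FPKM in fixed saline (1.93 ± 0.36, adjusted p = 0.00652). The co-regulator Nrip1 (1.13 ± 0.29, adjusted p = 0.0209) and the chaperone Hspa8 (1.02 ± 0.31, adjusted p = 0.0360) were the others. Of 17 tested immediate early genes 1 rose, Csrnp1, and 0 fell. Of 12 tested cytokines and chemokines 5 rose, among them the chemokines Ccl12 (2.89 ± 0.41) and Ccl2 (2.66 ± 0.69), and 1 fell, Il6 (-1.67 ± 0.34, adjusted p = 0.00853). Of 15 tested circadian genes 1 rose, Clock, and 1 fell, Per1. All these counts stand against 18% of all genes called. Of 11 neutrophil markers 0 rose and 2 fell, S100a8 and Camp, with a median of -1.86, and their part in the other differences was not tested.

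In escalating morphine, in the 7 injury comparisons and among the controls, 0 of the 80 entries of the 5 pathway lists were called. At an unadjusted p under 0.05 limma gave 1 entry (SNT 4 dpi, 2.34% of all genes) to 15 (SNT 1 dpi, 16.1% of all genes). In escalating morphine the 19 glucocorticoid-induced genes had a median log2 difference of -0.08 against 0.16 for all genes. Of them 1 above and 0 below had an unadjusted p under 0.05, where 19.2% of all genes did in either direction. In escalating saline against naive these 19 had a median of 0.03 against -0.10 for all genes. Of them 0 had an unadjusted p under 0.05, where 12.8% of all genes did. Fixed saline against naive gave a median of 0.08 over the 19, against 0.01 for all genes. At an unadjusted p under 0.05, 2 were above and 0 below, where 11.7% of all genes passed in either direction. Of the neutrophil markers 11 of 11 had a positive fitted difference in each saline group against naive. Their median log2 difference was 1.49 for fixed and 1.26 for escalating saline. By limma 0 were called, with 1 and 0 at an unadjusted p under 0.05. Of the monocyte markers 7 of 7 were positive in each, with medians of 1.02 and 1.23. Of these 0 were called, with 0 and 1 at an unadjusted p under 0.05. The part of both marker lists in the lower Fkbp5 and Tsc22d3 values was not tested.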

How the data were processed

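RNA of CD11b-selected spinal cord microglia was read from 1 table of 30 libraries. The deposited values are FPKM, per the authors' table; per the submitters' processing notes mm10, featureCounts 1.4.6, HISAT2 2.0.5.1, DESeq2 (no version) and Cufflinks 2.2.1 were named, and their roles and the annotation are not given in the sources used here. FPKM files hold no counts, so depth is unknown, no counting interval was computed and no count test was run. The FPKM were not rescaled; 826 rows sharing 281 repeated symbols were left out of the tests.

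Genes with at least 1 FPKM in at least 2 libraries (11759) were tested on log2(FPKM + 1), a scale that understates changes of low genes, with limma 3.58.1 in R 4.3.3, an intensity trend and Benjamini-Hochberg adjustment over all of them. Morphine groups were compared with the saline group of their regimen in 14 libraries, injury groups with all 9 controls in 1 fit, and controls among themselves in a fit of all 30. The procedure was tested on simulated data. Alternatives were a pseudocount of 0.1, no filter, quantile normalization, median-ratio scaling, array weights, other controls, and each library left out. The Cst3 line, the fits with it as a term, the naive libraries as controls of fixed morphine, and the direct SNT against CCI contrasts were chosen after seeing the data. In fits of all 30 libraries the Cst3 term was estimated only from SNT 7 dpi and escalating morphine, the groups with libraries on both sides. In the injury fit it was estimated from SNT 7 dpi and the controls, which were fitted together.

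The 9 genes and the lists were chosen with earlier results of these data known. Values are given for every one of the 9, fitted differences mainly where the unadjusted p was under 0.05, and for other lists their counts with up to 3 genes of lowest p. Likeness is the 3 tested genes with the highest Pearson correlation over 30 libraries. Controls are numbered 1 to 9 and other groups from 1, and same-numbered libraries did not deviate together: of 28 pairs of groups, 4 had a correlation of deviations over 0.1 (range -0.43 to 0.22). Promoter windows came from RefSeq. Python 3.11.15, pandas 2.3.3 and matplotlib 3.10.9 were used.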

Additional observations from a re-analysis of the deposited data

Results flagged for a closer look

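In 27 pairs of a gene and a group of 4 or 9 libraries, 4 held a library far from the rest of its group, judged by its gap to the nearest other library as a share of the group's range on log2(FPKM + 1); chance flags about 1 group in 20. Dusp1 was at 39.2 FPKM in fixed morphine replicate 4, with a gap of 0.89 of the range; that library also held the highest Klf9 and Zfp36 of the series. Nr3c1 was lowest in fixed morphine replicate 3, at 26.6 FPKM (0.86 of the range). In fixed saline, Fkbp5 was lowest in replicate 6, at 6.60 FPKM (0.88 of the range), and Tsc22d3 was highest in replicate 5, at 106 FPKM (0.89 of the range). No explanation of these values was tested.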

How the results depend on the processing

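Single-gene differences were followed only where their unadjusted p was under 0.05 in the main limma fit, which makes a change of sign less likely. Of 340 pairs of such a difference and an alternative setting, 1 turned in direction: Nr3c1 in fixed morphine, at -0.84 with the Cst3 side as a term against 0.38. The median of the 9 genes, followed in every comparison, changed sign in 31 of 264 pairs of a comparison and a setting, in 8 of 15 comparisons. It ran from -0.33 to 0.34 in fixed morphine, against 0.25; from -0.43 to 0.31 in SNT 2 dpi, against 0.02; from -0.60 to 0.88 in SNT 4 dpi, against -0.07; from -0.71 to 0.97 in SNT 7 dpi, against 0.30; from -0.68 to 0.20 in CCI 2 dpi, against -0.03; from -1.04 to 0.05 in CCI 7 dpi, against -0.21; from -0.66 to 0.28 in SNI 7 dpi, against 0.08; and from -0.27 to 0.62 for SNT against CCI at 2 dpi, against 0.20. The number of the 9 genes called in fixed morphine was 2 with array weights, 0 with the Cst3 side as a term and 0 with the naive libraries as the control, against 1. With array weights it was 1 for the difference between regimens, CCI 2 dpi, CCI 7 dpi and SNI 7 dpi (Sult1a1 each), 1 for fixed saline against naive (Tsc22d3) and 2 for escalating saline against naive (Fkbp5 and Tsc22d3), against 0 in each. With saline controls alone it was 1 for CCI 7 dpi. With each library left out it ran from 0 to 1 for the difference between regimens, SNT 1 dpi (Dusp1, without replicate 2, where the remaining library lists it at 0), SNT 7 dpi (Nr3c1 at -1.60 without replicate 2) and SNT against CCI at 2 dpi (Sult1a1 at 2.21 without SNT replicate 1), and from 0 to 2 for SNT against CCI at 7 dpi (Sult1a1 at 2.88 and Nr3c1 at -1.79 without SNT replicate 2; Sult1a1 at 0.86 without SNT replicate 1); a lone library was then assumed to vary like the other groups. The cause of these shifts was not tested.

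Genes called over the whole table moved far more: 0 to 4348 in fixed morphine, against 2119; 0 to 465 in escalating morphine, against 4; 0 to 683 for the difference between regimens, against 1; 0 to 1221 in SNT 1 dpi, against 2; 0 to 1143 in SNT 2 dpi, against 0; 0 to 1006 in SNT 7 dpi, against 24; 0 to 262 in CCI 2 dpi, against 1; 0 to 1068 in CCI 7 dpi, against 0; 0 to 1779 and 0 to 1777 for SNT against CCI at 2 and 7 dpi, against 0 in each; 0 to 1133 in fixed saline against naive, against 64; and 0 to 652 in escalating saline against naive, against 18. It was at most 44 in SNI 7 dpi, 23 for fixed against escalating saline and 11 in SNT 4 dpi, against 0 in each. The replicate block could be fitted only for injury groups and naive controls, which share numbers 1 and 2; with the replicate block 0 of the 9 genes were called in each of the 7 injury comparisons, as without it. For morphine no such fit was made because the saline libraries carry other numbers. Depth is unknown, groups of 2 limit every injury comparison, and Klf9 is mostly under 1 FPKM.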
